A study of Mus musculus with 6 samples.

Results

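Genes that p53 switches on were examined in a mouse beta cell line that carries extra Meg3. The set was a list of 32 textbook p53 targets and partners, and 31 of them were measured, of 20416 genes in all; Fdxr is not analysed here. A gene was measured where the array annotation gave probe sets to its symbol alone, and its value on an array is the mean log2 value of those probe sets (2 to 30 per member). RNA came from MIN6-4N, a subline of MIN6, in 2 groups of 3 arrays: a clone stably transfected with the empty vector pcDNA3.1 and a clone stably transfected with pcDNA3.1 carrying mouse Meg3. Both clones had gone through 5 weeks of G418 at 750 µg/ml and were then grown in low glucose DMEM with 15% serum and G418 at 500 µg/ml. The 3 arrays of a group were independent cultures of 1 clone, so p-values measure the spread between cultures, and an effect of Meg3 and any clone-to-clone difference cannot be told apart. The labels give the Meg3 clone 2 different clone numbers, and their descriptions mention sorted subpopulations that no protocol describes.

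p53 is a transcription factor that is kept scarce by the ubiquitin ligase Mdm2 and accumulates after DNA damage or oncogene stress. It then induces genes that halt the cell cycle, repair DNA, adjust metabolism or kill the cell, and it induces Mdm2, which closes a feedback loop. MEG3 RNA has been reported to raise p53 activity in human tumour cells, with GDF15 among the genes that responded. The parental MIN6 line came from a beta cell tumour of mice carrying SV40 large T antigen, a viral protein that binds p53. The amount and modification of the p53 protein were not measured, and the gene of p53 itself is not analysed here.

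Meg3, the transfected gene, averaged 5.84 ± 0.19 on the log2 scale (SD, n = 3) for vector and 7.56 ± 0.34 (SD, n = 3) for Meg3 cultures, 3.30-fold more, so the arrays matched their labels. Vector replicate 2 and Meg3 replicate 1 stood apart, with probe set values scattered around the median of the other arrays by an SD of 0.85 and 0.63 (log2), against 0.42 to 0.48 on the other 4. Of the beta cell markers, 11 of 11 measured lay above the median level of all genes (6.66) in at least 1 clone, and Ins2 and Iapp were at 12.54 and 13.34 in the vector clone. Of the markers of ducts and acini, 7 of 8 lay under that level in both clones, as did 8 of 10 markers of fibroblasts, endothelium and immune cells. The same held for 3 of 6 markers of alpha, delta and PP cells. The alpha cell hormone gene Gcg (12.82 and 12.66 in vector and Meg3) and the matrix gene Spp1 (12.33 and 11.85), also a duct marker, were far above it. Spp1 differed by -0.48 (SE 0.12, limma adjusted p = 0.231), with all Meg3 cultures below. Averaged over the 8 duct and acinar markers, the arrays read 6.22 to 6.41 in vector and 6.27 to 6.34 in Meg3, and the part of these markers in the results was not tested. In bulk RNA, fewer cells expressing a gene and less RNA per cell cannot be told apart.

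None of the 31 measured members of the list was called. By limma with Benjamini-Hochberg adjustment over all genes, 0 of 31 passed an adjusted p under 0.05, where 0.666% of all genes did (136 of 20416; 0.201% higher and 0.465% lower), so a count of 0 among 31 is near that background. At an unadjusted p under 0.05, 2 members had higher and 4 had lower values in the Meg3 clone, together 19.4% of them, where 6.96% of all genes passed (2.68% higher and 4.28% lower). The median log2 difference, Meg3 minus vector, was -0.03 over the 31 members and 0.01 over all genes. Of the members, 12 had positive and 19 negative differences. The differences ran from -0.70 (Dram1) to 0.66 (Ptpn14), and 27 of 31 (87.1%) were smaller than 0.5 in size, where 96.6% of all genes were.

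The intervals bound the difference in each member's gene value, a mean over its probe sets, and not the change in its RNA. Meg3 itself differed by 1.72 with the mean of its probe sets and by 3.33 with their median. Of the 31 members, 9 lay under the median level of all genes in both clones. For all 31 members the unadjusted 95% interval lay inside -1 and 1 on the log2 scale, that is, inside a 2-fold change either way. The same held for 95.9% of all genes, so this describes the precision of the arrays as much as the members. Averaged over the 31 members, the arrays read 7.65, 7.62 and 7.68 in the vector clone and 7.60, 7.60 and 7.57 in the Meg3 clone, a mean difference of -0.06, against 6.90 to 6.91 and 6.89 to 6.90 over all genes. On this average the Meg3 cultures lay slightly under the vector cultures and none lay above. A few members weigh on it: Dram1 (-0.70), Ddit4 (-0.63), Btg2 (-0.63) and Polk (-0.43) had the largest negative differences. Another 12 members had positive ones, up to 0.66 (Ptpn14), and the median was -0.03. Whether such an average is unusual for a set of this size was not tested.

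**Figure D1:**
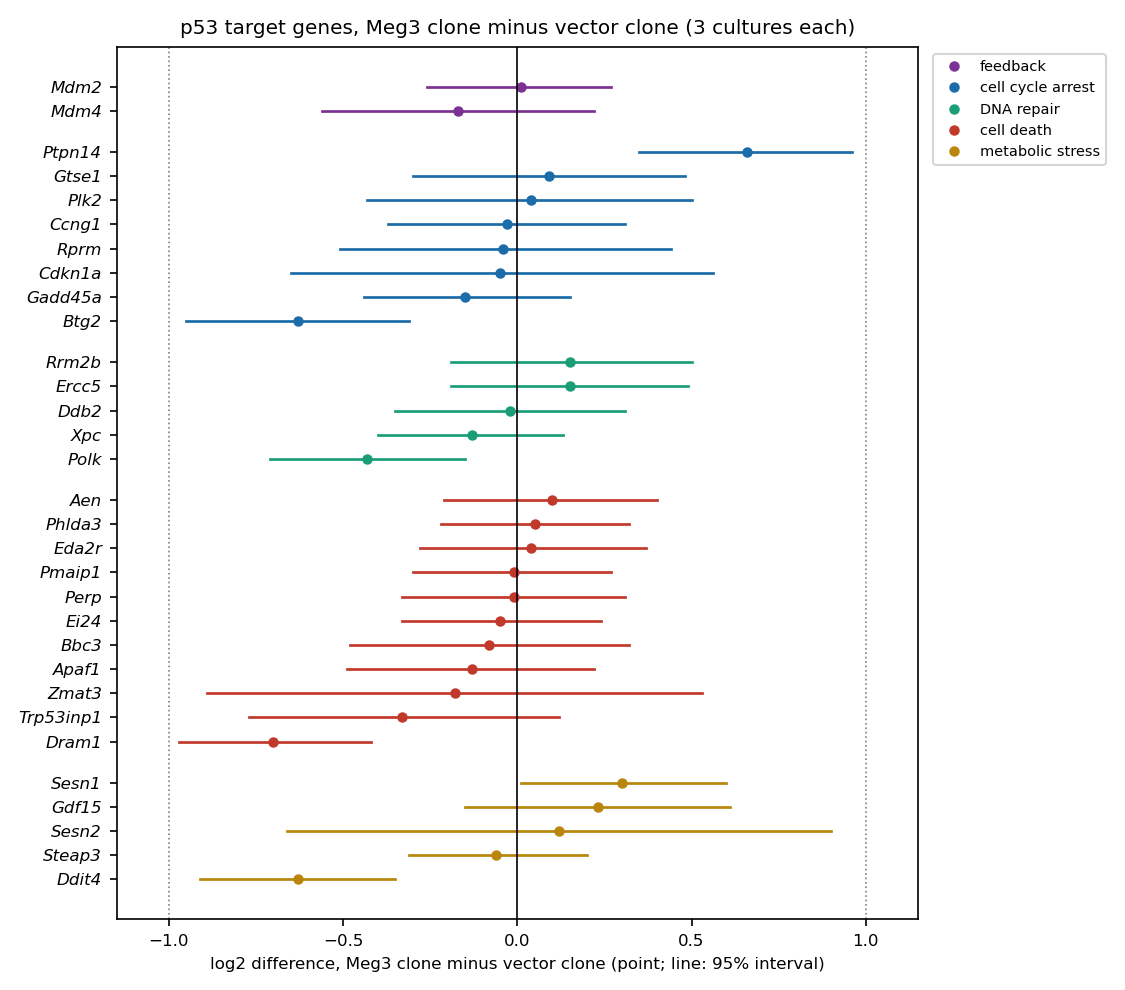
Log2 difference between the Meg3 clone and the vector clone (horizontal axis) for each of the 31 measured p53 targets, coloured by branch. Points are differences of means over 3 cultures each, lines are 95% intervals from limma, and dotted lines mark a 2-fold change; every interval lies between the dotted lines, and the points furthest from 0 are Dram1 at -0.70 and Ptpn14 at 0.66.

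Neither gene of the feedback pair was called by limma. Mdm2, the ligase that p53 induces and that degrades it, read 9.33, 9.42 and 9.36 on the vector arrays and 9.50, 9.36 and 9.27 on the Meg3 arrays. These ranges overlapped fully. The difference was 0.01 (SE 0.12, 95% interval -0.26 to 0.27; limma adjusted p = 1.00). Mdm4, the Mdm2 relative that masks the activation domain of p53, read 9.79, 9.95 and 9.88 against 10.06, 9.57 and 9.47. Meg3 replicate 1 was above all vector arrays and the other Meg3 arrays were below them, so the difference of -0.17 (SE 0.17) was no larger than its error.

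The arrest branch held 8 measured genes, with a median difference of -0.03 and 0 called by limma; 1 passed an unadjusted p under 0.05 in each direction. Its head is Cdkn1a, which encodes the CDK inhibitor p21 and is the standard readout of p53 activity. With it stand Ccng1, which encodes cyclin G1, and Gtse1, whose product is made in the late cell cycle and restrains p53. The RefSeq promoter windows of these 3 genes (GRCm38.p6, 250 bases before to 50 after a transcript start) are shown because each holds a p53 response element with 1 mismatch. The element was searched as 2 adjoining 10-base half-sites, each a C and a G around a pair of A or T bases with 3 purines before and 3 pyrimidines after. The C and G were required, both strands were covered because the half-site reads alike on each, and at most 1 base was allowed between half-sites. Capitals mark the match in windows chr17:29090729-29091028 (plus strand), chr11:40755237-40755536 (minus strand) and chr15:85859696-85859995 (plus strand).
Cdkn1a: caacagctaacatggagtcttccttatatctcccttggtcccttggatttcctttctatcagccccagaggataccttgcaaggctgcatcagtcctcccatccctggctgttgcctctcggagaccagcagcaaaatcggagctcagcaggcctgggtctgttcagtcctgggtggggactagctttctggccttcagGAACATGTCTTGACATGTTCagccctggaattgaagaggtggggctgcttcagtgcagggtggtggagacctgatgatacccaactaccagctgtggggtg
Ccng1: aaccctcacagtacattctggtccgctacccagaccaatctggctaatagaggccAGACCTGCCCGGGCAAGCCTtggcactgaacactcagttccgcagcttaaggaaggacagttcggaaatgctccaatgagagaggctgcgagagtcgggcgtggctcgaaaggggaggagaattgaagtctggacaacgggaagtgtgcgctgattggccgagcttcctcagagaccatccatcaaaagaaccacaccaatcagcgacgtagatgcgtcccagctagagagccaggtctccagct
Gtse1: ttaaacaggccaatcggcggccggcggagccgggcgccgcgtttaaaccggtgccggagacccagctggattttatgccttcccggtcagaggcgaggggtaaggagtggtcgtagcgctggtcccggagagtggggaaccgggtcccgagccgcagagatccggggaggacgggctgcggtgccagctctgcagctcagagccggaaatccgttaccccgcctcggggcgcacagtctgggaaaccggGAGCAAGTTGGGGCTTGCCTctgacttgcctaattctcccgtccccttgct

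The match began 51 bases before the upstream of the 2 RefSeq starts in Cdkn1a and 195 bases before the start in Ccng1. In Gtse1 it began 1 base before the downstream of its 2 RefSeq starts. A match with at most 1 mismatch was present for 35 of 27025 genes in the promoter table, or 0.13%, and for 3 of the 25 members that the table holds. The 25 include Fdxr, which is not analysed here. Sequence outside the windows was not searched, so a member without a match may hold an element elsewhere. A match is a description of the letters only.

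For each of the genes with these elements the difference between the clones was smaller than its error. Cdkn1a read 9.72, 8.75 and 9.40 in vector and 8.86, 9.51 and 9.36 in Meg3. Vector replicate 2 and Meg3 replicate 1 were the lowest of their groups, and the groups overlapped. The difference was -0.05 (SE 0.26, 95% interval -0.65 to 0.56; limma adjusted p = 1.00), and it was not called in any of 16 alternative settings. Single arrays turned its sign, from -0.32 without vector replicate 2 to 0.17 without vector replicate 1, and it was -0.12 (SE 0.12) without both arrays that stood apart. Ccng1 read 10.30, 10.77 and 10.42 against 10.56, 10.46 and 10.38, so the Meg3 values fell within the vector range. Its difference was -0.03 (SE 0.15, 95% interval -0.37 to 0.31). Gtse1 differed by 0.09 (SE 0.17).

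Ptpn14 and Btg2 had the widest separation between the clones in the arrest branch, in opposite directions. Ptpn14, a phosphatase that restrains the Hippo effector YAP, read 6.59, 6.79 and 6.89 in vector and 7.28, 7.40 and 7.56 in Meg3. All Meg3 cultures were above all vector cultures. The difference was 0.66 (SE 0.13), or 1.58-fold, and it missed the threshold over all genes (limma adjusted p = 0.106). Of its 28 probe sets, 26 had positive differences, from -0.44 to 1.85 overall. Btg2, an antiproliferative cofactor of mRNA deadenylation, read 9.78, 9.69 and 9.55 in vector and 9.06, 9.24 and 8.85 in Meg3. Here all Meg3 cultures were below. The difference was -0.63 (SE 0.14), 1.55-fold, with limma adjusted p = 0.137, and both of its probe sets were negative (-0.75 and -0.50).

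The remaining arrest genes had small differences. Gadd45a, a stress protein that acts in arrest and repair, differed by -0.15 (SE 0.13), the kinase gene Plk2 by 0.04 (SE 0.20) and Rprm, which encodes the arrest protein Reprimo, by -0.04 (SE 0.21). The gene values of Plk2 and Rprm lay under the median level of all genes in both clones. Not every probe set was dim, since the brightest read 8.17 and 8.48 in vector and Meg3 for Plk2 and 9.63 and 9.65 for Rprm.

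**Figure D2:**
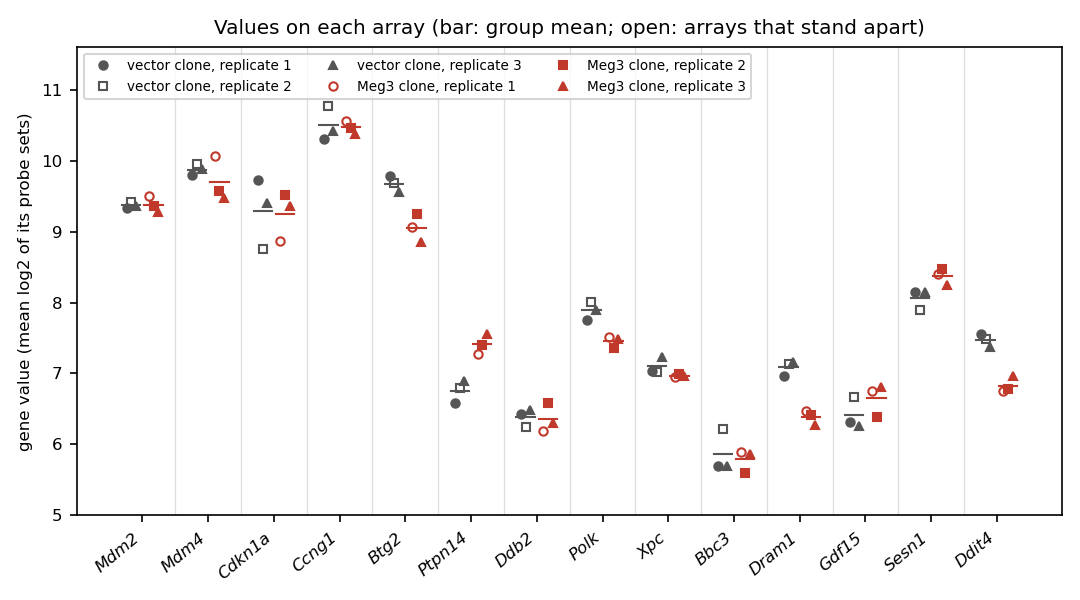
Gene values on each array (vertical axis, mean log2 of the gene's probe sets) for 14 p53 targets, vector clone in grey and Meg3 clone in red. Shapes are replicate numbers, bars are group means, and open symbols are vector replicate 2 and Meg3 replicate 1; the groups separate for Btg2, Ptpn14, Polk, Xpc, Dram1, Sesn1 and Ddit4 and overlap for Mdm2, Cdkn1a, Ccng1, Bbc3 and Gdf15.

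The repair branch held 5 genes, with a median difference of -0.02 and 0 called by limma. Ddb2, which recognises ultraviolet damage, read 6.43, 6.24 and 6.48 in vector and 6.19, 6.59 and 6.30 in Meg3. The groups overlapped, and the difference was -0.02 (SE 0.14, 95% interval -0.35 to 0.31). Both clones lay under the median level of all genes. Polk, the translesion polymerase kappa, read 7.76, 8.01 and 7.89 against 7.52, 7.36 and 7.49, with all Meg3 cultures below. Its difference was -0.43 (SE 0.12; limma adjusted p = 0.288), and 21 of its 24 probe sets were negative. Xpc, the damage sensor of nucleotide excision repair, also had non-overlapping groups, at 7.03, 7.02 and 7.23 against 6.95, 6.99 and 6.96. That separation was small, since the difference was -0.13 (SE 0.12) and 9 of its 20 probe sets were positive. The brightest Xpc probe set gave 0.12. Rrm2b, the p53-induced subunit of ribonucleotide reductase, and Ercc5, the XPG endonuclease, each differed by 0.15 (SE 0.15).

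The death branch held 11 genes, of which 8 had negative differences (median -0.05), with 0 called by limma. Bbc3, which encodes the BH3-only protein PUMA, read 5.70, 6.22 and 5.70 in vector and 5.89, 5.60 and 5.87 in Meg3. The groups overlapped, vector replicate 2 was highest, and the difference was -0.08 (SE 0.17, 95% interval -0.48 to 0.32). Bbc3 lay under the median level of all genes on these arrays, as did Pmaip1, which encodes the BH3-only protein NOXA (-0.01, SE 0.12), the Akt inhibitor gene Phlda3 (0.05, SE 0.12) and the death receptor gene Eda2r (0.04, SE 0.14). These gene values are means over probe sets of unlike brightness. The brightest probe set read 8.28 and 8.09 in vector and Meg3 for Bbc3, 7.23 and 6.96 for Pmaip1, and 7.05 and 7.12 for Eda2r. Those lay above the median level of all genes (6.66), and none was called by limma. For Phlda3, with each probe set under that level, the arrays say little.

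Dram1, which encodes a lysosomal membrane protein that links p53 to autophagy, came closest of all members to being called. It read 6.97, 7.14 and 7.16 in vector and 6.47, 6.42 and 6.27 in Meg3. All Meg3 cultures were below all vector cultures by more than the spread within either clone. The difference was -0.70 (SE 0.12), or 1.62-fold, with limma adjusted p = 0.0518. Its probe sets did not move alike. The brightest, at 9.50 in both clones, differed by 0.00, another by 0.29, and the other 6 by -1.85 to -0.46. Without vector replicate 2 Dram1 was called lower (limma adjusted p = 0.0365), the 1 member to pass there, where 1.71% of all genes did, whereas with the brightest probe set in place of the mean there was no difference.

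The other death genes above the median level of all genes were not called by limma and had differences of 0.33 or less in size. Apaf1, the scaffold of the apoptosome, differed by -0.13 (SE 0.15), and Ei24, an endoplasmic reticulum protein gene, by -0.05 (SE 0.12). The nuclease gene Aen differed by 0.10 (SE 0.13) and Perp, a membrane protein of desmosomes and apoptosis, by -0.01 (SE 0.14). Trp53inp1, a stress-induced cofactor of p53, differed by -0.33 (SE 0.19), and the RNA-binding protein gene Zmat3 by -0.18 (SE 0.31), an error more than 2 times the median error of the members (0.14). A looser search with 3 mismatches added a match to the element in Bbc3 and Aen of this branch and in Sesn1. These lie at chr7:16309486-16309505, chr7:78895937-78895956 and chr10:41887266-41887285 (all on the plus strand). They are shown because Bbc3 and Sesn1 are classical effectors, with Aen as the remaining gene that the search added. A match with at most 3 mismatches stood in 6 of the 25 members that the promoter table holds and in 3.27% of its genes.
Bbc3: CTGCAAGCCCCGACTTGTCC
Aen: GGGCTTGTCCGGGCAAGGAG
Sesn1: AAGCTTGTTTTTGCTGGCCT

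**Figure D3:**
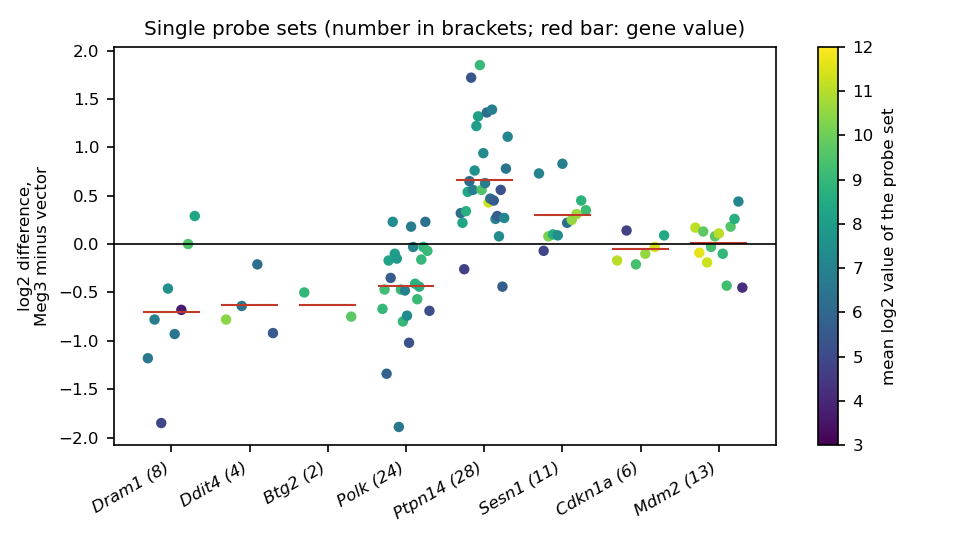
Log2 difference of single probe sets (vertical axis, Meg3 minus vector) for 8 p53 targets, coloured by the probe set's mean log2 value; red bars are the gene values. Probe sets of Ptpn14 lie mostly above 0 and those of Polk, Ddit4 and Btg2 mostly below, while those of Dram1 spread from -1.85 to 0.29 and those of Cdkn1a and Mdm2 lie on both sides of 0.

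The stress branch, with 5 measured genes for secreted and metabolic responses, had a median of 0.12 and 0 called by limma. That median was -0.04 without vector replicate 2, -0.03 without Meg3 replicate 2 and 0.01 with the 2 arrays that stood apart left out, so its sign rested on single arrays. Gdf15, the stress cytokine, read 6.32, 6.67 and 6.26 in vector and 6.75, 6.38 and 6.81 in Meg3. The groups overlapped through vector replicate 2 and Meg3 replicate 2. The difference was 0.23 (SE 0.17, 95% interval -0.15 to 0.61; limma adjusted p = 1.00), all 3 of its probe sets were positive (0.16 to 0.30), and both clones lay under the median level of all genes. The difference was positive in all 16 alternative settings (0.15 to 0.37). It was 0.36 without vector replicate 2 or without Meg3 replicate 2, and it was called in 1 setting, array weights, whose estimate did not converge (0.37; limma adjusted p = 0.0325). Sesn1 and Sesn2 encode sestrins, which restrain mTORC1 under stress. Sesn1 read 8.15, 7.89 and 8.15 against 8.40, 8.47 and 8.24, with all Meg3 cultures above, a difference of 0.30 (SE 0.13; limma adjusted p = 0.687) with 10 of 11 probe sets positive. Sesn2 differed by 0.12 (SE 0.34), the widest error of the set.

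Ddit4, an mTORC1 inhibitor that hypoxia and glucocorticoids induce as well as p53, differed in the opposite direction from Sesn1. It read 7.56, 7.48 and 7.37 in vector and 6.75, 6.78 and 6.97 in Meg3. All Meg3 cultures were below, the difference was -0.63 (SE 0.12), 1.55-fold, and it missed the threshold (limma adjusted p = 0.0823). All 4 of its probe sets were negative, from -0.92 to -0.21. Steap3, a ferrireductase gene, differed by -0.06 (SE 0.11) at a level under the median of all genes.

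Across the branches, the groups did not overlap for 7 of 31 members (22.6%), where 12.8% of all genes had such groups. The Meg3 cultures were higher for 2, Ptpn14 and Sesn1 (6.41% of all genes), and lower for 5, Btg2, Polk, Xpc, Dram1 and Ddit4 (6.39% of all genes). By branch, that is 1 higher and 1 lower of 8 for arrest, 2 lower of 5 for repair, 1 lower of 11 for death, and 1 higher and 1 lower of 5 for stress. No branch had its members on 1 side of 0.

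Part of the scatter of these genes followed the 2 arrays that stood apart. In both groups at once, 9 members were lowest and 12 were highest on vector replicate 2 and Meg3 replicate 1, or 29.0% and 38.7%, against 25.3% and 31.2% of all genes, shares close to each other. Sesn2 read -1.11 and -0.77 on those arrays against the mean of the other 2 of each group, Zmat3 -1.05 and -0.46, and Cdkn1a -0.81 and -0.58. Both shifts of Sesn2, and those of Zmat3 and Cdkn1a on vector replicate 2, were larger than the largest difference between the clones among the members (0.70 in size, for Dram1). Trp53inp1 read 0.33 and 0.59 and Mdm4 0.12 and 0.54 in the opposite direction, while Dram1 (0.07 and 0.12) and Btg2 (0.03 and 0.01) barely shifted.

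**Figure D4:**
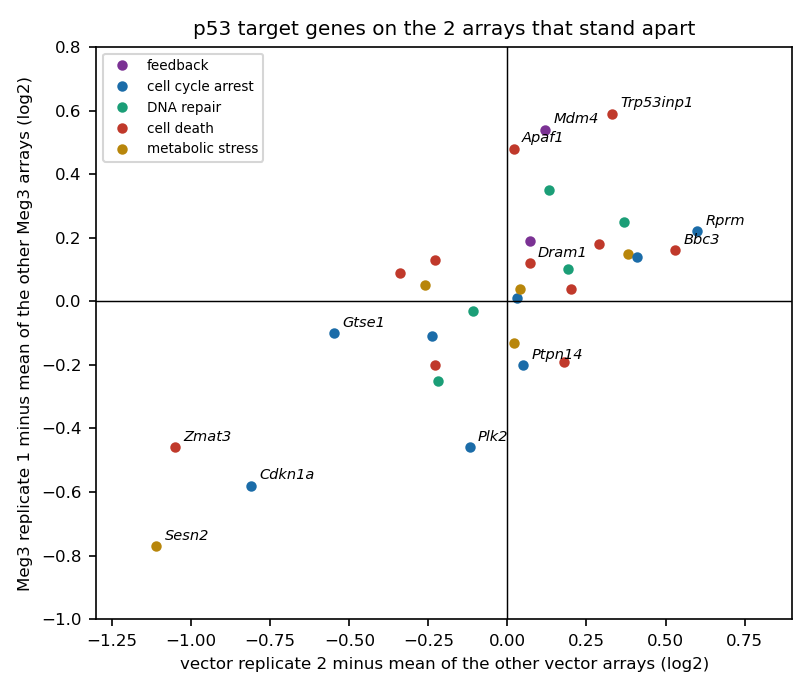
For each p53 target, the value on vector replicate 2 minus the mean of the other vector arrays (horizontal axis, log2) and on Meg3 replicate 1 minus the mean of the other Meg3 arrays (vertical axis, log2), coloured by branch. Sesn2, Zmat3 and Cdkn1a lie far to the lower left, from -1.11 to -0.81 on the horizontal axis, and Trp53inp1, Rprm and Bbc3 to the upper right.

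With both of those arrays left out, a setting chosen with results known, 1 member was higher and 4 were lower by limma at an adjusted p under 0.05, or 16.1% of the members, where 5.44% of all genes were called (1.43% higher and 4.01% lower). The higher one was Ptpn14 (0.74, SE 0.12; limma adjusted p = 0.00788). The lower ones were Dram1 (-0.71, SE 0.11; 0.00535), Ddit4 (-0.58, SE 0.11; 0.0162), Btg2 (-0.62, SE 0.14; 0.0327) and Trp53inp1 (-0.41, SE 0.10; 0.0476). With all 6 arrays Ptpn14, Dram1, Ddit4 and Btg2 had nearly the same differences and errors, while the error of Trp53inp1 was 0.19. Cdkn1a, Mdm2, Gdf15, Bbc3 and Ccng1 were not called there, and the median of the 31 was still -0.03.

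Other genes of the pathway were taken from lists of textbook members. Of 24 regulators of p53 and of damage signalling, 0 were called by limma (median 0.04), where 0.666% of all genes were. At an unadjusted p under 0.05, 1 regulator passed (4.17%), where 6.96% of all genes did. The brightest over the 6 arrays were Usp7, a deubiquitinase of Mdm2 and p53 (0.09, SE 0.12), and the ubiquitin ligase gene Huwe1 (0.26, SE 0.15, all Meg3 cultures above). Hipk2, which encodes a kinase of p53 and is named here for its values, had the largest difference of this list (0.76, SE 0.28; limma adjusted p = 0.569). Of 13 cell cycle genes that p21 represses through the DREAM complex, 0 were called by limma (median 0.00). At an unadjusted p under 0.05, 0 of them passed as well, beside the same shares of all genes. The cyclin genes Ccna2 and Ccnb2 differed by -0.09 (SE 0.11) and -0.27 (SE 0.16). These counts also rested on the arrays that stood apart. Without both of them Hipk2 was called higher (0.76, SE 0.10; limma adjusted p = 0.00182), and Chek2, a checkpoint kinase gene (-0.46, SE 0.11; 0.0488), and Ccnb2 (-0.45, SE 0.10; 0.0298) were called lower. In that fit 5.44% of all genes were called. With either kind of array weights Hipk2, Chek2 and Ccnb2 were called too, where 13.1% and 6.00% of all genes were.

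Of 18 further p53 targets outside the 31, 1 was called lower and 0 higher (median 0.04), where 0.666% of all genes were called. At an unadjusted p under 0.05, 3 were lower and 1 was higher, 22.2% of the list, where 6.96% of all genes passed. The called gene was Cd82, which encodes a tetraspanin known as a suppressor of metastasis. Cd82 read 8.61, 7.85 and 8.20 in vector and 6.79, 7.08 and 6.82 in Meg3, with all Meg3 cultures below. It fell by 1.32 (SE 0.20) on the log2 scale (limma adjusted p = 0.0285). The direction was the same in all 16 alternative settings, and it was called in 9 of them (limma adjusted p from 2.31e-05 to 0.201). Among the 6 fits without 1 array, the call held in the 1 without vector replicate 2, where 1.71% of all genes were called. In that fit the death receptor gene Tnfrsf10b was called lower as well (-1.02, SE 0.20; limma adjusted p = 0.0482), against -0.81 (SE 0.23; 0.309) with all 6 arrays. Without both arrays that stood apart, 3 of these targets were called lower (Cd82, Tnfrsf10b and Abhd4) and 1 higher (Igfbp3), where 5.44% of all genes were called.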

How the data were processed

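Expression was measured on 6 Affymetrix arrays, 3 per clone, from 6 µg of total RNA each, per the labels' protocols. The deposited log2 values are summaries of each probe set; the submitters' processing notes name RMA and Partek, and their versions and a genome build were not given in the sources used here. Of 241419 probe sets, 212097 carried 1 gene symbol, 4475 several and 24847 none in the array annotation; only the first kind was used. Symbols were updated through RefSeq (GRCm38.p6): 2742 matched a synonym and 53 nothing. Each gene's value was the mean of its probe sets (median 8 per gene), with no filter on dim genes.

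The fit used lmFit and eBayes (limma 3.58.1, R 4.3.3; two-sided, no covariates), with p-values adjusted by Benjamini-Hochberg over 20416 genes. SE is the moderated standard error, and the intervals are not adjusted. Steps were tested on simulated data. An exact permutation test of 3 against 3 arrays cannot give a p under 0.1. Arrays carry no read depth; their number limits the precision.

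The members, branches and lists were chosen with earlier results of these data known. Every member is named. Values on each array are given for Cdkn1a, Mdm2, Gdf15, Bbc3, Ddb2 and Ccng1, for members whose groups did not overlap and for the smallest p of each branch. Of the other lists, called genes or the brightest 2 are named; Hipk2, Chek2, Tnfrsf10b, Abhd4 and Igfbp3 were added after their values were seen. Promoters came from RefSeq (25 of 32 members matched). Alternatives were a replicate block, centring, repeated quantile normalization, a filter that drops the dimmest 30% of genes, the brightest or the median probe set, trend and robust estimation, array weights, and leaving out each array. The main fit did not pair arrays by replicate number. Correlations of deviations for numbers 1, 2 and 3 were -0.61, -0.63 and 0.28. They cannot settle whether cultures were paired, since the 2 arrays that stood apart carry different numbers.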

Additional observations from a re-analysis of the deposited data

How the results depend on the processing

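With the replicate block, 0 members were called in either direction, as without it, while the count over all genes went from 136 to 30. Numbers 1 to 3 are shared by the groups. Same-numbered arrays had correlations of deviations of -0.61, -0.63 and 0.28, which cannot settle whether cultures were paired. Centring, repeated quantile normalization, the filter on dim genes (which leaves 30 members, without Eda2r), the brightest or median probe set and trend with robust estimation also left 0 members called, with 144, 157, 127, 40, 58 and 141 genes called over all. Leaving out 1 array gave 0 members higher and 0 to 1 lower (Dram1, without vector replicate 2), with 22 to 349 genes called over all. Array weights called 2 members higher, Gdf15 among them, and 6 lower (13.1% of all genes called), but that estimate did not converge and gave vector replicate 3 a weight of 10.5 against 0.130 for vector replicate 2. Weights estimated gene by gene, added after seeing the data, called 1 higher and 4 lower (6.00% of all genes). Leaving out both arrays that stood apart also called 1 and 4, with Trp53inp1 in place of Polk. The 2 settings are not independent, since the gene by gene weights of those arrays were low (0.160 for vector replicate 2 and 0.430 for Meg3 replicate 1). The repair median of -0.02 was 0.11 with the brightest probe set and from -0.14 to 0.04 with 1 array left out. The death median of -0.05 was -0.21 with array weights. The stress median of 0.12 was from -0.04 to 0.18 with 1 array left out. With the brightest probe set 9 members turned sign, among them Mdm4 (to 0.08), Xpc (to 0.12), Zmat3 (-0.18 to 0.19) and Ddb2 (-0.02 to 0.11) upward and Aen (0.10 to -0.14) downward, and Steap3 went from -0.06 to -0.77 and Perp from -0.01 to -0.38; the cause was not tested. Leaving out 1 array turned the sign of 14 members in at least 1 of the 6 fits. Meg3 was higher in every setting, but was not called with the brightest (2.02, limma adjusted p = 0.241) or median probe set (3.33, 0.0629), and leaving out 1 array gave differences from 1.55 to 1.88, uncalled without Meg3 replicate 3 (1.74, 0.0666). Tested singly, 0 of 310 member probe sets passed limma, where 8 of 212097 did. With 3 arrays a group, a median SE of 0.14 limits what could be called among the members.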
